A study of Mus musculus with 4 samples.

Results

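The immunoglobulin variable segments measured here are the features whose symbol starts with Ighv (heavy chain) or Igkv (kappa light chain) and that had at least 1 unique molecular identifier (UMI, a tag that counts 1 captured RNA molecule) in any of the 4 libraries. They numbered 107 of the 345 such features in the feature table, which holds 31054 features in all. Of these members, 52 came from 185 Ighv features and 55 from 160 Igkv features. An antibody chain is made when a developing B cell joins 1 variable segment to smaller joining pieces and places the result upstream of a constant gene, so that the joined variable segment is near the 5' end of the finished transcript, far from the tail. Each B cell as a rule keeps 1 heavy and 1 light chain rearrangement, and all its daughters inherit both, so that segments shared among plasma cells can mark a clone. Plasma cells, the antibody-secreting end stage, fill much of their messenger RNA with these chains.

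The libraries were single-cell suspensions of mouse mammary tumours that model triple-negative breast cancer, read from the 3' end of each transcript. T11-Apobec tumour cells grew in female BALB/c mice, labelled Balbc, and KPB25Luv tumour cells in female FVB/NJ mice, in both models after injection into the number 4 mammary gland. The treated mice received an antibody against PD1 at 10 mg/kg together with an antibody against CTLA4 at 100 µg, given biweekly once tumours had reached 5 mm across, and were sampled after 7 days of therapy. The untreated mice received none. Each of the 4 groups was 1 library and there were no replicates, so intervals here are exact 95% intervals that cover counting error only, and no p-value is given. The cells called plasma cells below had at least 2 Jchain UMIs and 20 heavy constant UMIs, and B cells had at least 2 UMIs of Cd79a and Cd79b without meeting the plasma cell rule.

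The 3' reads were seldom assigned to a heavy or kappa variable segment, and the reason was not tested. All members together held 538 UMIs, 123 of them heavy and 415 kappa. The treated T11-Apobec library held 177 segment UMIs among 47131040 UMIs in 6504 barcodes, against 11 among 98475778 UMIs in 11304 barcodes of the untreated one. The treated KPB25Luv library held 331 among 30369476 UMIs in 5509 barcodes, against 19 among 87677328 UMIs in 6773 barcodes of the untreated one. These are 3.76 and 0.112 segment UMIs per 1000000 UMIs (CPM) in treated and untreated T11-Apobec, and 10.9 and 0.217 in treated and untreated KPB25Luv. Plasma cells of the treated libraries carried 337 of the 538 UMIs (62.6%). The rule found 42 plasma cells in treated and 1 in untreated T11-Apobec, and 84 in treated and 1 in untreated KPB25Luv. B cells numbered 893 and 162 in treated and untreated T11-Apobec, and 756 and 255 in treated and untreated KPB25Luv. Between 2.58 and 3.17% of the kept cells of a library had a barcode that another library also held, and these included 0 plasma cells of treated T11-Apobec and 1 of treated KPB25Luv.

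Both cell labels were checked against markers that the rules did not use. In plasma cells of treated T11-Apobec, 11 of 12 plasma cell markers stood at least 2-fold above cells outside the B lineage, and their summed level was 13668 against 628 CPM. In treated KPB25Luv it was 12 of 12, and 10529 against 488 CPM. All 12 B cell markers stood at least 2-fold above the cells outside in the B cells of each of the 4 libraries. The cell taken as a plasma cell in untreated KPB25Luv had 54453 UMIs in all and 63 heavy constant UMIs, and that of untreated T11-Apobec had 5410 and 276. In the untreated KPB25Luv cell, 6 of 12 plasma cell markers had a UMI, at 1653 CPM in sum against 786 CPM in the cells outside. It also had UMIs of 10 of 12 B cell markers, at 808 CPM in sum against 63.3 CPM outside. B cell markers did not set this cell apart, since plasma cells of the treated libraries, summed over cells, also had them. All 12 had a UMI there, at 949 against 208 CPM in treated KPB25Luv and 360 against 139 CPM in treated T11-Apobec. The epithelial markers of the untreated KPB25Luv cell and its macrophage and monocyte markers summed to 404 CPM each, below the 3560 and 2233 CPM outside. The label of this cell is thus uncertain. In the untreated T11-Apobec cell, 7 of 12 plasma cell markers had a UMI, at 9797 against 736 CPM.

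The 10 segments on which the results turn are shown by the end that lies nearest to the constant gene, since that end would be reached first by a 3' read. Each is the last 90 bases of the annotated variable exon in the C57BL/6-based GENCODE M21 annotation of GRCm38, the assembly of mm10, 5' to 3' on the gene's own strand. The capitals mark TANNNCTG, the letters that hold the conserved tyrosine codon and the start of the conserved cysteine codon at the end of a variable segment.
Ighv3-8: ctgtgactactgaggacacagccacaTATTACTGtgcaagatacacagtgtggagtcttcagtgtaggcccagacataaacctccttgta
Ighv9-3: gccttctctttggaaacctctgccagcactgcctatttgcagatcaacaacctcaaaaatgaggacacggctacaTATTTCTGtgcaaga
Ighv1-64: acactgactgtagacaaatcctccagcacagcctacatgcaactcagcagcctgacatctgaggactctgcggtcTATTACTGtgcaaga
Ighv8-12: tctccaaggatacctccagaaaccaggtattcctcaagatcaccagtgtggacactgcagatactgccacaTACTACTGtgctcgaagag
Igkv16-104: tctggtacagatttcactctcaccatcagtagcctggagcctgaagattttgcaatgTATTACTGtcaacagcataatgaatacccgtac
Igkv3-4: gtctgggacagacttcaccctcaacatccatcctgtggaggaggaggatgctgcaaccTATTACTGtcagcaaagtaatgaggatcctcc
Igkv3-1: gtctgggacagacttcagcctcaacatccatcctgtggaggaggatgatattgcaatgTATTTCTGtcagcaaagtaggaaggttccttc
Igkv3-12: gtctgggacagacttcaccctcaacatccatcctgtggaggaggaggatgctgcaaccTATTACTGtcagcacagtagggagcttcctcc
Igkv8-21: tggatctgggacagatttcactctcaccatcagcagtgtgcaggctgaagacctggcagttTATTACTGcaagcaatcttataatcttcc
Igkv4-51: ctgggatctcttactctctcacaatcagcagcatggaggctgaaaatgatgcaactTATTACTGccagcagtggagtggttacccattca
The heavy segments lie on the minus strand of chromosome 12, at chr12:114322327-114322416 for Ighv3-8, chr12:114140692-114140781 for Ighv9-3, chr12:115507545-115507634 for Ighv1-64 and chr12:115647945-115648034 for Ighv8-12. On the plus strand of chromosome 6 are Igkv16-104 at chr6:68425983-68426072, Igkv3-4 at chr6:70672288-70672377, Igkv3-1 at chr6:70704088-70704177 and Igkv3-12 at chr6:70518760-70518849. On its minus strand are Igkv8-21 at chr6:70314895-70314984 and Igkv4-51 at chr6:69681406-69681495. The annotated Ighv3-8 runs further past the motif than the other 9. The 3 Igkv3 segments shown share most of their letters, and Igkv3-4 and Igkv3-12 were 89.7% identical over the whole exon, while Igkv3-4 and Igkv8-21 were 68.5% identical. On the coding strand, the motif stood in the last 60 coding bases of 103 of 115 heavy (89.6%) and 92 of 100 kappa (92%) segments with a coding exon, and in the last 60 bases of 6.05% of all other transcripts. The mice were not of the strain behind the annotation, so a segment name stands for the annotated gene that a read was assigned to, and segments are described within a model and not compared between models.

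The members were counted by annotation. Of the kappa features, 52 of 100 annotated as functional variable genes had a UMI, against 3 of 60 pseudogenes. Of the heavy features, 46 of 113 functional genes had one, against 6 of 70 pseudogenes. The pseudogenes held 10 kappa UMIs, 8 of them of Igkv3-11, and 9 heavy UMIs. Segments are near copies of each other, and the median detected member was 95.3% identical to its nearest relative in both chains, so reads may have been split between relatives and the names are uncertain to that extent. Most members were seen rarely. A total of 38 members (35.5%) had 1 UMI in all, 18 had 10 or more, and 2 of those 18 were heavy. Heavy members held a median of 1 UMI and at most 10, and kappa members a median of 4 and at most 39. The kappa segments point both ways along chromosome 6, and the 22 detected on the strand of the constant gene Igkc held 214 UMIs, against 201 UMIs for the 33 detected on the opposite strand. A segment on the opposite strand joins by inversion and one on the same strand by deletion.

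Variable segments were a very small part of the chain RNA in plasma cells. In treated T11-Apobec plasma cells, 16 heavy segment UMIs stood beside 45434 heavy constant UMIs, or 3.52 per 10000 (2.01 to 5.72), and 87 kappa segment UMIs beside 132031 Igkc UMIs, or 6.59 per 10000 (5.28 to 8.13). In treated KPB25Luv plasma cells, 24 heavy segment UMIs stood beside 86946, or 2.76 per 10000 (1.77 to 4.11), and 210 kappa segment UMIs beside 207666, or 10.1 per 10000 (8.79 to 11.6). The shortest annotated Igkc transcript has 532 bases, while that of Ighg1 has 1076 and that of Ighm 1493, and whether these lengths bear on the ratios was not tested. B cells gave more heavy segment UMIs per constant UMI than plasma cells, beyond the counting intervals, in both treated libraries. Heavy constant UMIs are part of the plasma cell rule, which requires at least 20, so a lower heavy ratio in plasma cells is partly set by the selection. The values in B cells were 30.7 per 10000 (17.9 to 49.2) in treated T11-Apobec and 22.9 per 10000 (13.8 to 35.7) in treated KPB25Luv. For kappa the B cell values were 9.61 (5.60 to 15.4) and 13.7 (9.26 to 19.6) in the same order, with intervals that overlapped those of plasma cells. Heavy segments accordingly made up 15.5% (9.15 to 24.0%) of the segment UMIs in plasma cells and 50% (32.4 to 67.6%) in B cells of treated T11-Apobec. In treated KPB25Luv they made up 10.3% (6.68 to 14.9%) in plasma cells and 38.8% (25.2 to 53.8%) in B cells. Without plasma cells that carried at least 2 T cell or myeloid marker UMIs, the heavy value of KPB25Luv plasma cells was 1.49 per 10000 (0.600 to 3.07). That of T11-Apobec plasma cells was 4.91 per 10000 (1.01 to 14.4), and both intervals overlapped those with all plasma cells kept.

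**Figure D1:**
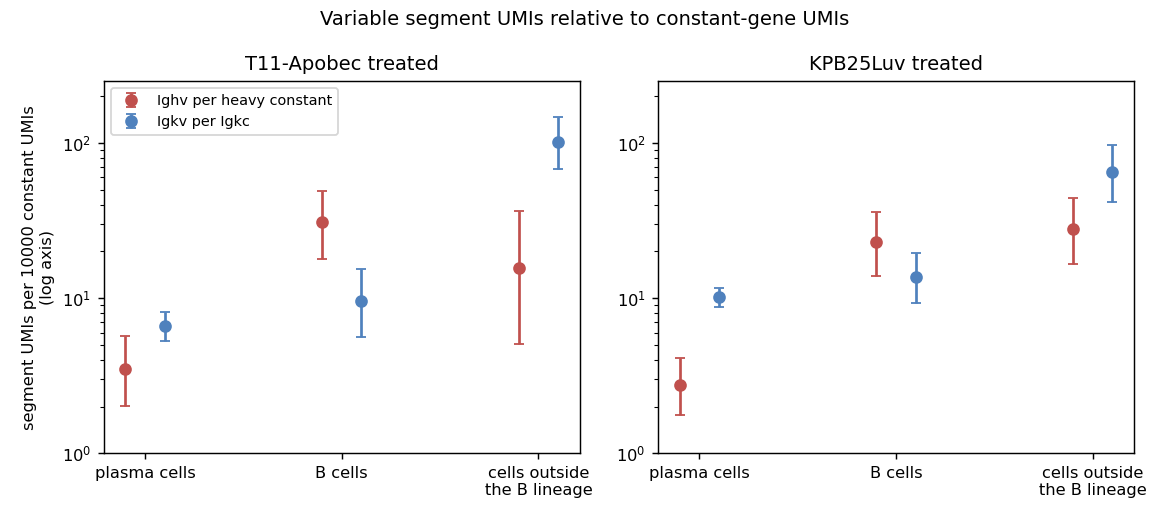
Segment UMIs per 10000 constant UMIs (log axis) in plasma cells, B cells and cells outside the B lineage of the treated libraries, with exact 95% counting intervals. The heavy values of plasma cells, 3.52 and 2.76, lie below those of B cells, 30.7 and 22.9, and the kappa values of cells outside the lineage, 102 and 65.0, lie above those of plasma cells. Heavy constant UMIs are part of the plasma cell rule, so the heavy difference is partly set by the selection.

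Segment UMIs were also found in cells without Jchain, Cd79a or Cd79b UMIs, which here serve as the background of free RNA. These cells had segment UMIs at 0.917 CPM (0.632 to 1.29) in treated and 0.0212 (0.00257 to 0.0766) in untreated T11-Apobec, and 2.27 (1.63 to 3.06) in treated and 0.0538 (0.0147 to 0.138) in untreated KPB25Luv. In treated T11-Apobec, 31 of 893 B cells (3.47%) had a segment UMI at a median of 1674 UMIs per cell, against 32 of 4663 cells outside (0.686%) at 4591. In treated KPB25Luv, 45 of 756 B cells (5.95%) had one at a median of 2786, against 42 of 3722 cells outside (1.13%) at 3788. In untreated KPB25Luv it was 12 of 255 B cells (4.71%) at 2324, against 3 of 5709 outside (0.0525%) at 9210, and in untreated T11-Apobec 4 of 162 (2.47%) at 960, against 2 of 9862 (0.0203%) at 8064.5. B cell shares stood above the background in each library, at a lower depth per cell. Kappa segment UMIs outside the lineage stood in another ratio to constant UMIs than in plasma or B cells, while the heavy ratio outside overlapped that of B cells. Kappa segments were at 102 per 10000 Igkc UMIs (67.6 to 147) in the cells outside of treated T11-Apobec and at 65.0 (41.7 to 96.7) in those of treated KPB25Luv, both above the intervals of plasma and B cells. Heavy segments were at 15.7 per 10000 heavy constant UMIs (5.10 to 36.6) in the cells outside of treated T11-Apobec, an interval that overlapped those of both plasma and B cells. In treated KPB25Luv they were at 28.0 (16.6 to 44.3), which overlapped B cells and lay above plasma cells. The heavy share of segment UMIs outside was 15.2% (5.11 to 31.9%) in treated T11-Apobec, beside 15.5% in plasma cells and 50% in B cells. In treated KPB25Luv it was 42.9% (27.7 to 59.0%), beside 10.3% in plasma cells and 38.8% in B cells. Of the 42 such KPB25Luv cells 37 had at least 2 T cell marker UMIs, as did 3399 of all 3722 cells outside, and in T11-Apobec it was 16 of 32 and 3028 of 4663. Ighv8-12, a heavy member with 10 UMIs in all, was read in treated KPB25Luv and in no other library, with 3 UMIs in plasma cells, 5 in cells outside and 2 in cells with a trace of B lineage markers.

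In plasma cells of treated T11-Apobec, 32 segments had a UMI, 23 kappa and 9 heavy. Igkv3-4 led with 23 UMIs, and these came from 3 cells with 14, 7 and 2. Igkv3-1 followed with 10 UMIs in 5 cells, Igkv16-104 with 7 in 2 cells and Igkv8-21 with 7 in 4 cells. Igkv6-20 and the annotated pseudogene Igkv3-11 had 5 each. The first heavy segments were Ighv9-3 with 4 UMIs in 2 cells and Ighv3-8 with 3 in 2 cells. A total of 11 segments had 1 UMI. A cell with many UMIs of 1 segment weighs more in these sums than a cell with few, so the order of segments by UMIs is not an order by cells. The Igkv3 family, with 8 members, held 44 of the 87 kappa UMIs. Of the 42 plasma cells, 31 had at least 2 T cell or myeloid marker UMIs at a median depth of 14508.5 UMIs per cell, and without them 7 kappa segments had a UMI in place of 23. The part of other cells' RNA in these counts was not tested.

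In plasma cells of treated KPB25Luv, 54 segments had a UMI, 38 kappa and 16 heavy. Igkv8-21 led with 29 UMIs in 5 cells, 21 of them in 1 cell. Igkv3-12 had 20 UMIs in 3 cells, Igkv3-1 had 18 in 3 cells, and Igkv6-13 had 13 in 5 cells. Igkv1-117 and Igkv6-20 had 12 each, and Igkv12-98 had 10. The first heavy segments were Ighv1-77 with 4 UMIs in 1 cell, Ighv1-64 with 3 in 3 cells and Ighv8-12 with 3 in 2 cells. A total of 24 segments had 1 UMI. The Igkv3, Igkv8 and Igkv6 families held 59, 40 and 35 of the 210 kappa UMIs, and Ighv1, the family with 27 members, 15 of the 24 heavy ones. In untreated tumours the 1 plasma cell of T11-Apobec had 2 UMIs of Igkv18-36. The 1 of KPB25Luv, whose label is uncertain, had 1 UMI of Igkv1-132. The spread of segments in untreated tumours therefore cannot be compared with that of treated tumours.

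**Figure D2:**
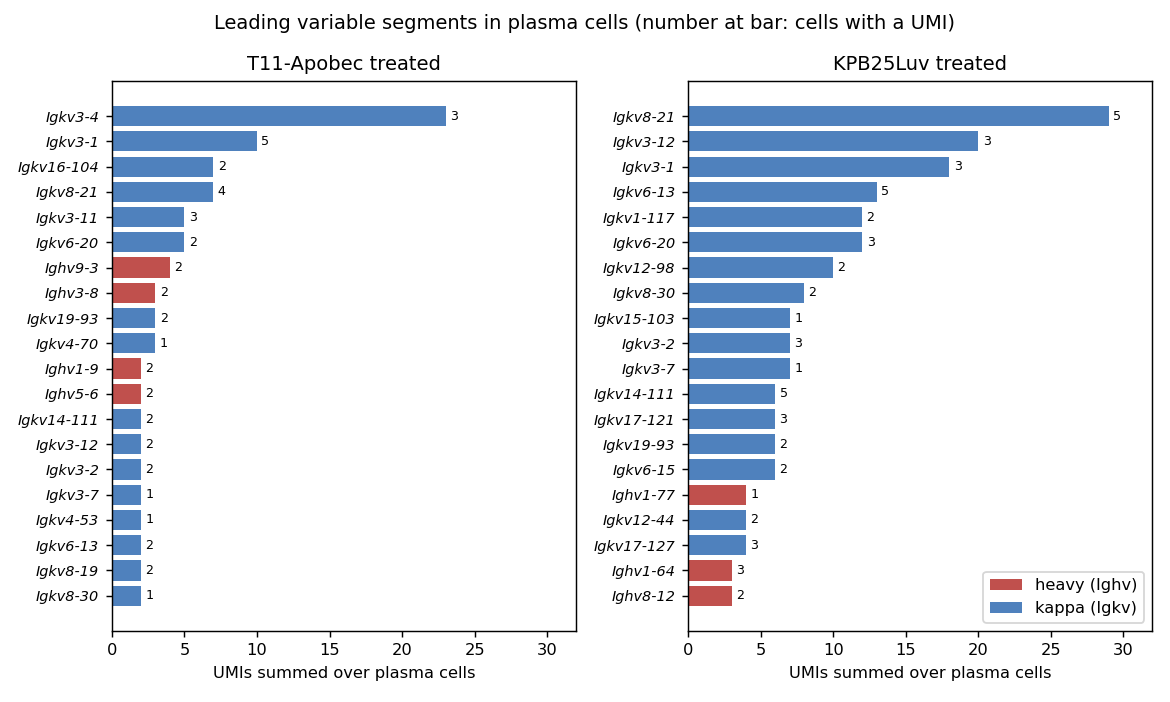
UMIs of the 20 variable segments with the most UMIs (of those with at least 2) summed over the 42 plasma cells of treated T11-Apobec and the 84 of treated KPB25Luv, with the number of cells beside each bar. Kappa segments fill the upper rows, led by Igkv3-4 with 23 and Igkv8-21 with 29, and the largest heavy bars are at 4 UMIs.

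Cells were assigned to a leading segment where it held over 50% of the cell's segment UMIs of that chain. With the requirement of at least 5 UMIs, 0 plasma cells had a leading heavy segment in any library. For kappa, 2 cells of treated T11-Apobec were assigned, both to Igkv3-4, and 9 cells of treated KPB25Luv, to 8 segments. Without plasma cells that carried at least 2 T cell or myeloid marker UMIs, the leading kappa segments numbered 0 in T11-Apobec and 5 in KPB25Luv, and with over 80% of the UMIs required 1 in T11-Apobec and 4 in KPB25Luv. The 9 were 2 cells with Igkv3-12 and 1 each with Igkv1-117, Igkv12-98, Igkv19-93, Igkv3-1, Igkv6-20, Igkv8-21 and Igkv8-30. Because so few cells passed, lower requirements were added after the data were seen. At 2 UMIs, 13 cells of treated T11-Apobec were led by 9 kappa segments, with Igkv3-4 in 3 cells (23.1%, 5.04 to 53.8%) and Igkv3-1 and Igkv16-104 in 2 each, and 22 cells of treated KPB25Luv were led by 19, with 2 cells each for Igkv1-117, Igkv12-98 and Igkv3-12. At 1 UMI, 21 cells were led by 15 kappa segments in treated T11-Apobec and 39 cells by 29 in treated KPB25Luv. Igkv3-1 and Igkv3-4 then led 3 T11-Apobec cells each, and Igkv3-12 and Igkv17-121 led 3 KPB25Luv cells each. Heavy chains at 1 UMI gave 11 cells and 8 segments in treated T11-Apobec, with Ighv1-9, Ighv3-8 and Ighv9-3 in 2 cells each. In treated KPB25Luv they gave 11 cells and 9 segments, with Ighv1-64 in 3 cells (27.3%, 6.02 to 61.0%). No segment led more than 3 plasma cells of a library at any of these requirements.

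Heavy and kappa leads could be paired in few cells. At 1 UMI, 6 plasma cells of treated T11-Apobec had both, in 5 pairs, and 7 of treated KPB25Luv had both, in 7 pairs. The repeated pair was Ighv3-8 with Igkv16-104 in treated T11-Apobec. In 1 of these cells Ighv3-8 had 2 UMIs and Igkv16-104 had 4, beside 1961 heavy constant and 5123 Igkc UMIs. In the other Ighv3-8 had 1 and Igkv16-104 had 3, with 1 UMI of Igkv14-111, beside 709 heavy constant and 1993 Igkc UMIs. Both cells were led by Ighg1, the constant gene of IgG1. These 2 cells held every Ighv3-8 and Igkv16-104 UMI of the 42 plasma cells, and Igkv16-104 also had 3 UMIs in cells outside the lineage of that library. The 2 cells with Ighv9-3, at 2 UMIs each, had unlike partners, since 1 carried Igkv8-30 at 2 UMIs and was led by Ighg3, and the other had 1 UMI each of Igkv3-12, Igkv6-20 and Igkv8-19 and was led by Ighg1. The 3 KPB25Luv cells with Ighv1-64, at 1 UMI each, had Igkv17-127 at 2 UMIs, Igkv1-117 at 9 and Igkv8-21 at 21 as their leading kappa segments. Of these the Igkv1-117 cell was led by Ighm, the constant gene of IgM, and the other two by Ighg1. The KPB25Luv cell with the most heavy segment UMIs carried Ighv1-77 at 4 beside Igkv3-2 at 2.

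The isotype of the cells was read from the constant genes of the same annotation. The mice were not of its strain, so a name such as Ighg2c stands for the annotated gene that reads were assigned to. Whether these mice carry that gene was not tested. Ighg1 led 26 of 42 plasma cells in treated T11-Apobec, with Ighg2c and Ighg3 leading 5 each, Ighg2b 3, Ighm 2 and Ighe 1. It led 66 of 84 in treated KPB25Luv, with Ighm leading 9, Ighe 7 and Ighg2b and Ighg2c 1 each. Cells led by Ighg1 held 43 of the 87 kappa segment UMIs in T11-Apobec, and the 5 led by Ighg3 held 29. The Ighg3 cells include that with 22 kappa UMIs, the most in the library. In KPB25Luv the cells led by Ighg1 held 190 of 210. Lambda constant UMIs exceeded Igkc UMIs in 1 cell of each treated library, and those cells had 0 kappa segment UMIs.

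The kappa UMIs of a plasma cell did not always come from 1 segment. Of the plasma cells with at least 2 kappa segment UMIs, 9 of 19 in treated T11-Apobec and 14 of 30 in treated KPB25Luv showed 1 segment. Igkv3-1 at 15 UMIs, Igkv1-117 at 9, Igkv8-30 at 6, Igkv6-15 at 4 and Igkv17-121 at 4 each stood alone in a KPB25Luv cell, as did Igkv3-4 at 7, Igkv6-20 at 4 and Igkv4-70 at 3 in T11-Apobec cells. In contrast, 2 T11-Apobec and 8 KPB25Luv cells had at least 2 UMIs of each of 2 or more kappa segments. Some of these segments were close relatives, such as Igkv6-13 and Igkv6-15, which are 95.3% identical, Igkv3-1 and Igkv3-2 at 92.9%, and Igkv8-24 and Igkv8-30 at 91.8%. Reads of such relatives can be confused, and the 3' ends shown for Igkv3-4, Igkv3-1 and Igkv3-12 differ in few positions.

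Others were not alike and lay on opposite strands, in 1 T11-Apobec and 5 KPB25Luv cells. The KPB25Luv cell with the most kappa UMIs had 21 of Igkv8-21 and 7 of Igkv15-103, which are 64.7% identical. Another had 12 of Igkv3-12 and 7 of Igkv6-13, at 67.6% identity. The next had 10 of Igkv6-20 beside 7 of Igkv3-7, at 65.7%, and another had 7 of Igkv3-12 beside 5 of Igkv8-21, at 68.5%. The last had 2 each of Igkv14-111 and Igkv9-124, at 79.4%. The T11-Apobec cell had 14 of Igkv3-4, 4 of Igkv8-21 and 2 each of Igkv3-1 and Igkv3-11. The 5 KPB25Luv cells held 16718, 24891, 23541, 15284 and 30182 UMIs in the order given, all above the plasma cell median of 14806.5. Their T cell marker UMIs were 2, 15, 16, 1 and 2. The T11-Apobec cell held 15861 UMIs with 2 T cell marker UMIs. None of the 2 T11-Apobec and 8 KPB25Luv cells with several kappa segments was among the barcodes with the highest Scrublet doublet scores, which held 3 of the 42 and 5 of the 84 plasma cells. Such scores mark 2 cells of 1 type poorly, so whether these were 2 plasma cells in 1 droplet was not tested. The 8 KPB25Luv cells had a median of 16170.5 UMIs, against 13752.5 in the 14 cells with 1 segment, and 5 of the 8 and 6 of the 14 carried at least 2 T cell or myeloid marker UMIs.

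**Figure D3:**
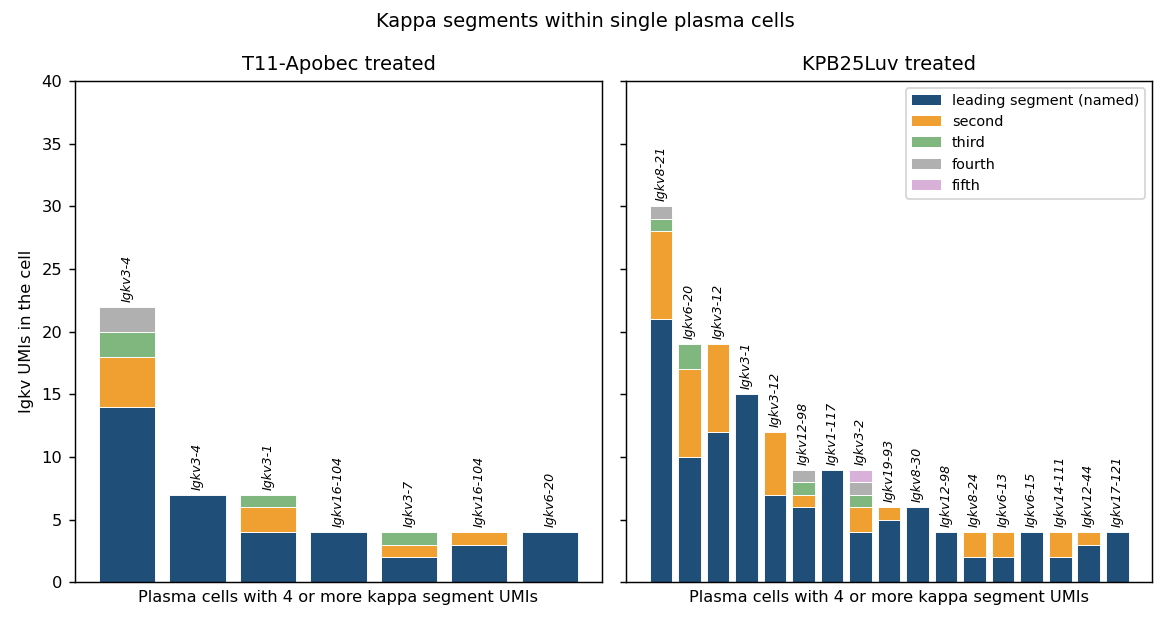
Igkv UMIs in each plasma cell with at least 4 of them, in treated T11-Apobec (7 cells) and treated KPB25Luv (17 cells), stacked by segment in order of UMIs, with the leading segment named. Cells of 1 colour, such as that with 15 UMIs of Igkv3-1, showed 1 segment, while the cell led by Igkv8-21 with 21 UMIs had 7 of a second.

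B cells spread their few UMIs over many segments. In treated T11-Apobec B cells 34 UMIs came from 24 segments, with 3 each for Ighv5-6, Igkv6-32 and Igkv19-93. The Ighv5 family held 8 of the 17 heavy UMIs there. In treated KPB25Luv B cells 49 UMIs came from 36 segments. Igkv4-51 had 7 UMIs in 7 cells (24.1%, 10.3 to 43.5%, of the 29 cells led by a kappa segment at 1 UMI), Igkv10-96 had 5 and Ighv1-64, Ighv8-11 and Igkv3-12 had 2 each. Igkv4-51 had 0 UMIs in the plasma cells of either treated library. In untreated T11-Apobec, the 4 B cell UMIs were 1 each of Ighv1-80, Ighv5-15, Igkv6-20 and Igkv12-38. In untreated KPB25Luv, 14 UMIs came from 13 segments, and Ighv3-2 had 2. With at least 2 UMIs required, the 1 B cell with a leading segment was in treated KPB25Luv, with Igkv10-96. At 1 UMI, treated and untreated T11-Apobec B cells gave 11 and 2 heavy and 11 and 2 kappa segments, and treated and untreated KPB25Luv B cells 15 and 7 heavy and 19 and 3 kappa segments. These numbers follow the number of cells with a UMI, and in neither model did treated and untreated B cells both reach 10 assigned cells, so the spread was not compared at equal numbers of cells.

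Segment CPM values were then set side by side in B cells of treated and untreated tumours of a model. In T11-Apobec heavy segments stood at 7.22 CPM in treated (17 UMIs) and 5.70 CPM in untreated B cells (2 UMIs), a ratio of 1.04 (0.300 to 11.3), and kappa segments had the same counts. In KPB25Luv heavy segments stood at 5.76 CPM in treated (19 UMIs) and 5.31 CPM in untreated B cells (11 UMIs), a ratio of 1.06 (0.491 to 2.52). Kappa segments stood at 9.10 CPM in treated (30 UMIs) and 1.45 CPM in untreated KPB25Luv B cells (3 UMIs), a ratio of 5.47 (1.95 to 32.2). Igkc, the kappa constant gene, was at 6625 CPM in treated and 1775 CPM in untreated KPB25Luv B cells, and at 7515 CPM in treated and 2650 CPM in untreated T11-Apobec B cells. The heavy constant genes together had a ratio of 3.92 (3.70 to 4.16) in KPB25Luv and 1.85 (1.68 to 2.05) in T11-Apobec. Heavy segments per 10000 heavy constant UMIs were thus at 22.9 (13.8 to 35.7) in treated and 82.8 (41.3 to 148) in untreated KPB25Luv B cells. In T11-Apobec B cells they were at 30.7 (17.9 to 49.2) in treated and 45.0 (5.46 to 163) in untreated. Markers of other cells also differed between the T11-Apobec libraries. The 5 macrophage and monocyte markers, all with a UMI in both, summed to 1270 CPM in treated and 6551 CPM in untreated T11-Apobec B cells, beside 6660 and 3722 CPM in the cells outside the lineage of the same libraries. The 6 T cell markers summed to 789 CPM in treated and 106 CPM in untreated T11-Apobec B cells, with 6 and 5 of them read. At least 2 T cell or myeloid marker UMIs were found in 275 of 893 treated (30.8%) and 29 of 162 untreated (17.9%) T11-Apobec B cells. The part of these cells' RNA in the T11-Apobec values was not tested. Ratios carry 0.5 added counts.

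The KPB25Luv ratio depended on which cells were kept as B cells. In the treated library 177 of 756 B cells (23.4%) had at least 2 T cell or myeloid marker UMIs, against 139 of 255 (54.5%) in the untreated one. The 4 epithelial markers, Epcam, Krt8, Krt18 and Krt14, summed to 18.5 CPM in treated and 2667 CPM in untreated KPB25Luv B cells. The macrophage and monocyte markers summed to 19.7 CPM in treated and 1390 CPM in untreated, and the T cell markers to 1140 CPM in treated and 243 CPM in untreated. Without the marker-bearing cells, 579 treated and 116 untreated B cells remained, and the epithelial markers were at 22.2 CPM in treated and 477 CPM in untreated. Kappa segments were then at 13.9 CPM in treated (25 UMIs) and 8.37 CPM in untreated (2 UMIs), a ratio of 1.35 (0.413 to 14.4). Heavy segments were at 9.43 CPM in treated (17 UMIs) and 29.3 CPM in untreated (7 UMIs), a ratio of 0.309 (0.127 to 0.918). Igkc was at 9687 CPM in treated and 9285 CPM in untreated, a ratio of 1.04 (0.998 to 1.09). In T11-Apobec the same step left 618 treated and 133 untreated cells with Igkc at 10708 CPM in treated and 4473 CPM in untreated, a ratio of 2.39 (2.23 to 2.57). Its heavy segment ratio was then 0.796 (0.213 to 8.78) and its kappa segment ratio 1.33 (0.283 to 81.6). The heavy segment ratio of KPB25Luv was thus below 1 with an interval that excludes 1, in place of 1.06 with one that covers it. The kappa segment ratio of KPB25Luv was thus 1.35 in place of 5.47, with an interval that still covers 5.47, while the Igkc ratio was 1.04 in place of 3.73, with an interval that does not cover 3.73. The part of other cells' RNA in these ratios was not tested.

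**Figure D4:**
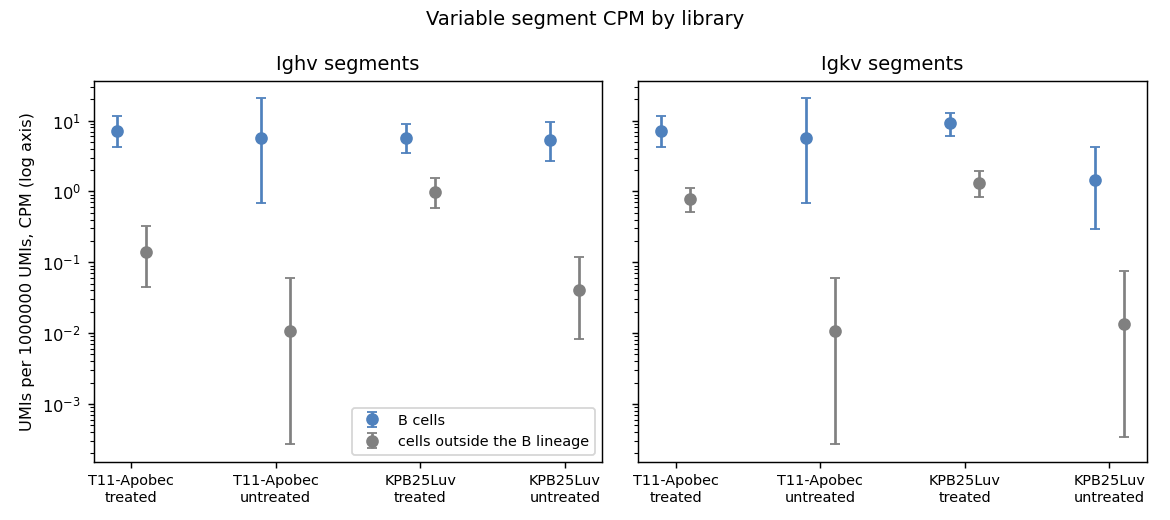
Heavy and kappa segment UMIs as CPM (log axis) with exact 95% counting intervals in B cells and in cells outside the B lineage of each library. B cells lie above the cells outside in each library, and the kappa level of untreated KPB25Luv B cells, 1.45 CPM, is the lowest of the B cell values.

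Single segments were too sparse for the same comparison. With at least 10 UMIs in both libraries of a model together, 0 members could be compared in either model and 0 were called 2-fold higher or lower. Of all 9745 features tested in T11-Apobec B cells, 11.3% were higher and 16% lower at 2-fold, and of 11015 in KPB25Luv B cells 15.3% were higher and 24.3% lower. Igkv4-51, with 7 UMIs in treated and 0 in untreated KPB25Luv B cells, and Igkv10-96, with 5 and 0, had the highest counts.

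The genes that recombine, repair and transcribe the segments were read in the same B cells from a list of 20. In T11-Apobec 11 of them could be tested, 2 were called higher and 0 lower, with a median log2 ratio of 0.32 against -0.12 over all features. The 2 were Ung, the glycosylase that removes uracil from DNA, and Pax5, the factor that keeps B cell identity. Pax5 was at 127 CPM in treated and 51.3 CPM in untreated B cells, a ratio of 2.41 (1.54 to 4.23), and Ung at 15.7 CPM in treated and 5.70 CPM in untreated, a ratio of 2.23 (0.711 to 23.6). Without the marker-bearing cells both calls were lost, with Pax5 at 165 CPM in treated and 85.5 CPM in untreated, a ratio of 1.88, and Ung at 15.3 CPM in treated and 10.7 CPM in untreated, a ratio of 1.18.

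In KPB25Luv 13 could be tested, 8 were called higher and 0 lower, with a median of 1.15 against -0.12. The 8 were Irf4, Ebf1, Vpreb3, Pou2f2, Pou2af1, Pax5, Bcl6 and Xbp1. Irf4, a factor needed for plasma cell formation, was at 21.5 CPM in treated and 1.93 CPM in untreated B cells, a ratio of 9.98 (4.17 to 42.0). Without the marker-bearing cells, 12 could be tested and 2 were higher, beside 10.4% of 8350 features higher and 10.6% lower, with a median of 0.39, or 0.34 with Bcl6 at its bound, against -0.04. Those 2 were Ung and Bcl6. Ung was at 30.5 CPM in treated (55 UMIs) and 8.37 CPM in untreated (2 UMIs), a ratio of 2.94. Over all B cells it was at 26.1 CPM in treated and 40.6 CPM in untreated, a ratio of 0.643 (0.470 to 0.879) that was not past 2-fold. The ratio of 2.94 rests on 2 untreated UMIs and no interval was taken for it, so a change of direction is not established. Bcl6, the germinal centre repressor, had 13 treated and 0 untreated UMIs, a call that rests on the added counts. Irf4 was then at 16.6 CPM in treated and 8.37 CPM in untreated. Ebf1, a factor that sets B cell fate, was at 944 CPM in treated and 231 CPM in untreated B cells over all, and at 1401 CPM in treated and 1029 CPM in untreated without those cells. In T11-Apobec Msh6, a mismatch repair gene, was called higher after the same step, 1 of 11, beside 11.3% of 7781 features higher and 14.1% lower. Rag1 and Rag2, the recombinase that joins the segments, had 0 UMIs in B cells of both models, as had Igll1 and Vpreb2, parts of the surrogate light chain. Vpreb1 of the same list had 2 UMIs in treated KPB25Luv B cells. Dntt had 4 in treated T11-Apobec and 2 in treated KPB25Luv B cells. In plasma cells Xbp1, which drives secretion, was at 1148 CPM in treated T11-Apobec and 964 CPM in treated KPB25Luv, Pou2af1, a co-activator of segment promoters, at 278 and 368 CPM in that order, and Ell2, which favours the secreted heavy chain form, at 157 and 160 CPM.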

How the data were processed

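Raw UMI counts per feature and barcode were deposited as a matrix for each of the 4 libraries. The libraries were made with the 10x 3' v2 kit, per the labels' protocols. Per the file headers, these counts came from Cell Ranger 3.0.2, and the submitters' processing notes name mm10. The lowest barcode total was 500 to 503 UMIs in each library.

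Barcodes with fewer than 200 genes or over 10% mitochondrial UMIs were removed, 373 and 983 in treated and untreated T11-Apobec and 236 and 298 in treated and untreated KPB25Luv. Doublets were kept. As an alternative the highest Scrublet scores (scanpy 1.11.5) were removed at 0.8% per 1000 barcodes, 319 and 933 cells in T11-Apobec (treated, untreated) and 232 and 351 in KPB25Luv, since the tool's own threshold marked 1 and 5 cells in the treated libraries.

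CPM is the sum of UMIs over a class of cells per 1000000 UMIs of the class. Intervals are exact at 95% (Poisson, Clopper-Pearson, or conditional binomial for ratios) and cover counting error only. Features with at least 10 UMIs in both libraries together were called at 2-fold with 0.5 added counts. Segment positions and sequences were matched by Ensembl identifier in GENCODE M21. Identity between segments was counted over globally aligned variable exons (Biopython 1.88). Scripts ran in Python 3.11.15 with pandas 2.3.3, scipy 1.17.1 and numpy 2.4.6, and figures were drawn with matplotlib 3.10.9.

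Named segments were, per library and class, those that led the most cells (up to 5 per chain), those leading at least 3 plasma cells, and that with the most UMIs. Of the list of 20 genes (1 further gene is not reported here), those with at least 20 UMIs were eligible for values. Segments named from single cells, such as mixed or paired kappa segments, and the genes under that minimum were chosen after their values were seen. The members and lists were chosen with earlier results of these data known.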

Additional observations from a re-analysis of the deposited data

Results flagged for a closer look

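Lambda variable segments (Iglv), which are outside the heavy and kappa comparisons, were read at 26.9 CPM in the treated T11-Apobec library, with 1243 UMIs against 19 in the untreated one (0.197 CPM). They were read at 62.3 CPM in the treated KPB25Luv library, with 1872 UMIs against 2 in the untreated one (0.0230 CPM). The signal stands out because it lies in features no comparison above uses and above the level of the untreated libraries. Each untreated library held 1 plasma cell, against 42 and 84 in the treated ones. The 1 of untreated T11-Apobec held 17 of the 19 Iglv UMIs, beside 13 lambda constant UMIs, or 13077 per 10000. The 1 of untreated KPB25Luv held 0, beside 6. Whether the levels follow the number of plasma cells was not tested. Iglv1 held 1180 of the 1223 Iglv UMIs in plasma cells of treated T11-Apobec and 1781 of 1846 in those of treated KPB25Luv. These UMIs were found in 34 of 42 and 59 of 84 plasma cells, with at most 243 and 134 in 1 cell. The same cells held 1769 and 3576 lambda constant UMIs, or 6914 and 5162 Iglv UMIs per 10000, while B cells held 18.6 and 36.2 per 10000. Cells outside the B lineage held 10 Iglv UMIs in treated and 2 in untreated T11-Apobec, and 9 in treated and 0 in untreated KPB25Luv. Lambda constant UMIs exceeded Igkc UMIs in 1 plasma cell of each treated library. The source of the Iglv1 reads was not tested.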

How the results depend on the processing

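Of 280 values under alternatives for 38 results, 245 stayed within the spread or 1.5 times the count and 35 moved. Many of the 245 were 0 set against 0 and had little or no room to move. These include leading heavy segments of the untreated plasma cells, most repeated pairs, and 2-fold calls of segments in T11-Apobec B cells, where 0 could be tested. The 245 are therefore not a measure of stability. Among these results, no log2 ratio of segment UMIs in B cells whose interval excludes 0 changed sign, but those with intervals that cover 0 did. Ratios of the 20 listed genes were not among these results. Of those, the Ung ratio in KPB25Luv B cells, 0.643 (0.470 to 0.879), was 2.94 without marker-bearing cells. That value rests on 2 untreated UMIs and no interval was taken for it. The log2 ratio of heavy segments in T11-Apobec, 0.06, was -0.16 without the highest Scrublet scores, -0.33 without cells with T cell or myeloid markers and -0.41 under the stricter B cell rule, that of kappa segments, 0.06, was -0.07 without the highest Scrublet scores, and that of heavy segments in KPB25Luv, 0.09, was -0.66 under the stricter rule and -1.69 without marker-bearing cells. The cause was not tested beyond what each setting leaves in. The number of leading segments follows the least UMIs required. For treated T11-Apobec plasma cells, heavy segments were 2 and 8 at 2 and 1 UMIs, and kappa segments to 5, 9 and 15 at 3, 2 and 1 UMIs. For treated KPB25Luv plasma cells, heavy segments were 1, 3 and 9 at 3, 2 and 1 UMIs, and kappa segments to 4, 13, 19 and 29 at 10, 3, 2 and 1 UMIs, and to 4 where over 80% of UMIs was required. The kappa count of the untreated plasma cell was 1 in T11-Apobec at 2 and 1 UMIs, and 1 in KPB25Luv at 1 UMI. In B cells at 1 UMI, heavy segments were 11 in treated and 2 in untreated T11-Apobec and 15 in treated and 7 in untreated KPB25Luv, and kappa segments 11, 2, 19 and 3 in that order. Kappa segments in treated KPB25Luv B cells were 0 at 3 UMIs. Cells in a repeated pair in treated T11-Apobec were 2 at 1 UMI.

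Without cells with T cell or myeloid markers, the leading kappa segments in treated plasma cells were 0 in T11-Apobec and 5 in KPB25Luv, and the kappa segments with a UMI in T11-Apobec were 7. The heavy value per 10000 constant UMIs was then 1.49 (0.600 to 3.07) in treated KPB25Luv and 4.91 (1.01 to 14.4) in treated T11-Apobec plasma cells. The log2 ratios of KPB25Luv B cells, 0.09 for heavy and 2.45 for kappa, were -1.69 (-2.98 to -0.12) and 0.43. Segment UMIs outside the B lineage in untreated KPB25Luv were then 1.41 CPM (0.171 to 5.10), beside 0.0538 (0.0147 to 0.138) with the marker-bearing cells kept. In untreated T11-Apobec they were 0 in T cells alone, which allows up to 2.31 CPM. With a filter of 5 UMIs, 2 segments passed 2-fold higher in KPB25Luv B cells. They were Igkv4-51, with 7 treated and 0 untreated UMIs, and Igkv10-96, with 5 and 0. Both calls rest on the added counts, and the intervals of the ratios, from 0.905 and 0.575 upwards, cover 1. The share of all features called at that filter was not counted, so these calls are not read as a result. No paired analysis was possible because each group was 1 library. Leaving out a replicate was not possible for the same reason. With 538 segment UMIs in all, depth limits each statement on segments.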

Other observations

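Ighj and Igkj features had 0 UMIs in the kept cells of each library.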
